A study of Drosophila melanogaster with 12 samples.

Results

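Cytosolic ribosomal proteins build the ribosome that translates the messages of the nucleus, and 34 of their genes were followed here in testes of 4 Drosophila melanogaster genotypes. The members are the genes whose probe sets carry 1 symbol beginning RpL or RpS with a digit, or RpLP, in the platform's annotation, without 10 genes of the testis paralog pairs (RpL22, RpL22-like, RpL10Aa, RpL10Ab, RpS28a, RpS28b, RpS5a, RpS5b, RpS19a and RpS19b). They make up 34 of the 11982 genes measured: 16 genes of the large subunit, 3 of its stalk, 11 of the small subunit, and 4 relatives whose symbol ends in "-like". RefSeq lists 82 protein-coding genes with a fitting symbol, and 48 of those were not analysed here. None of the 34 was lost to a filter on dim genes, as none was applied.

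RNA came from whole testes of males 1 day old, with about 200 pairs of testes pooled per sample and 3 samples for each genotype, each hybridized to 1 Affymetrix Drosophila Genome 2.0 array. The mutants carried bam1/bamΔ86, aly2/aly5P or sa1/sa2, and the control strain was y,w, written yw below, with pigmentation markers that the labels give for no mutant. All are whole-fly genotypes, so the testis wall and somatic cells carried them too. The labels call the 3 samples of a genotype biological replicates, and every value below is an intensity in linear units as deposited or a difference in log2(intensity + 16).

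The ribosome's small subunit reads the message and its large subunit forms the peptide bonds, and the proteins of both are made in nearly matched amounts. Assembly begins in the nucleolus, where RNA polymerase I transcribes ribosomal RNA and many assembly factors join the proteins to it for a time. Germ cells of the fly testis divide as spermatogonia, grow as spermatocytes and then become spermatids, in which most transcription has ended. The Bam protein is needed for the change to spermatocytes, so bam testes hold spermatogonia-like cells. Aly, part of a testis form of a MYB-containing chromatin complex, and Sa, a testis TAF, are needed for spermatocytes to turn on spermatid genes and enter meiosis, and both mutants stop as spermatocytes, while yw testes hold all stages.

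The labels could be checked on the arrays for sa and, in part, for the stages present. The sa transcript had 96.2 to 112 units in sa testes, against 1179 to 1518 in yw, with 6878 to 7616 units in aly and 20.8 to 25.3 units in bam. The transcript was lower in sa than in yw by 3.52 log2 units (limma adjusted p = 8.69e-10). The bam and aly transcripts were not lost in their own mutants, with bam at 948 to 1174 units in bam and 36.5 to 67.2 in yw, and aly at 132 to 148 units in aly and 83.7 to 89.4 in yw, so these probe sets do not check the bam and aly labels. Several germ cell genes differed widely. The sperm-tail gene Mst87F averaged 243 units in bam, 3905 in aly and 8293 in sa, against 16537 in yw. The germline stem cell gene piwi averaged 2903, 87.7 and 78.3 units, against 38.4 in yw. The gene twe averaged 200, 62.9 and 154 units, against 133 in yw. Of 9 such genes measured, 3 were called higher and 5 lower in bam than in yw (34.3% and 18.6% of all genes). The counts were 3 and 3 in aly (28.2% and 15.1%) and 1 and 3 in sa (23.9% and 12.9%). Markers of other tissues differed too. Of the muscle list, 7 of 11 genes were measured, and they summed to 13701 to 15722 units in bam arrays, 1942 to 2892 units in aly arrays and 2871 to 4568 units in sa arrays, against 7389 to 8456 units in yw arrays. Act87E, named after its values were seen, gave most of the yw sum. Without it the other 6 genes summed to 10271 to 11762 units in bam, 1572 to 2184 in aly and 1672 to 2607 in sa, against 1690 to 2703 in yw, so that bam stood further apart and aly and sa overlapped yw.

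Ribosomal protein transcripts were more abundant in all 3 mutants than in yw. The median member had 14726 to 15394 units in the bam arrays, 11313 to 12271 in aly and 12519 to 12601 in sa, against 4517 to 5528 in yw, so that no mutant array overlapped a yw array. The F test of limma over the genotypes passed for 34 of 34 members, with adjusted p between 4.03e-10 and 0.0083, beside 83.7% of all genes. These are bulk samples, in which fewer cells of a type and less RNA per cell cannot be told apart, nor can the loss of a regulator and the loss of the stages that only yw testes hold.

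**Figure D1:**
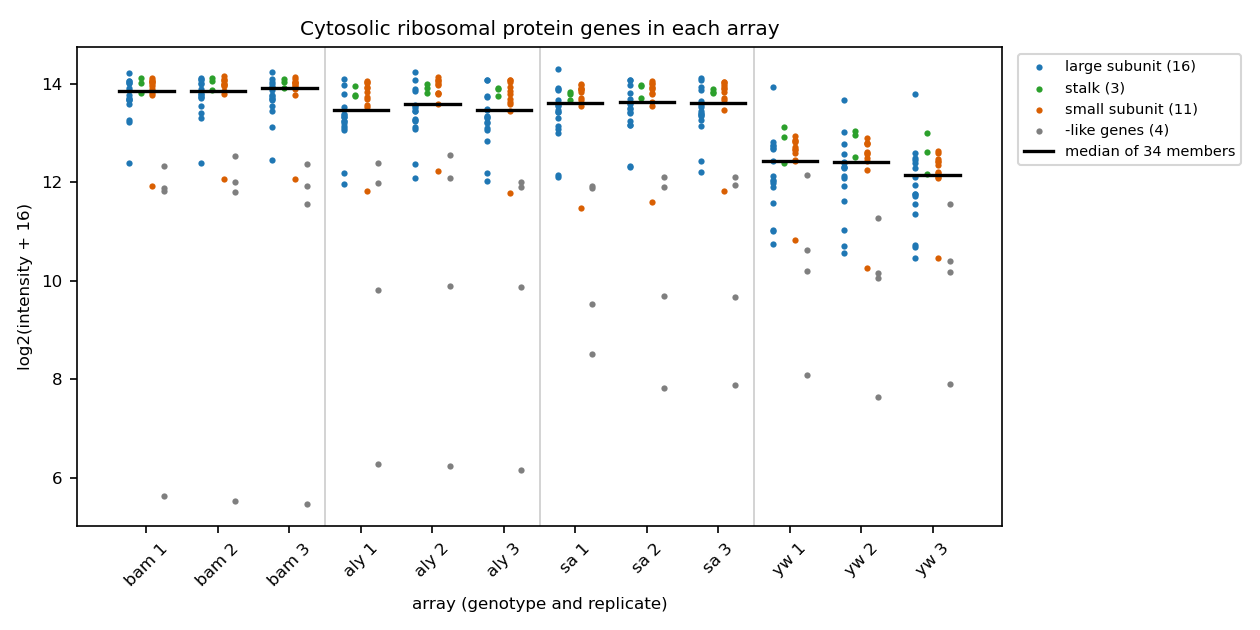
Level of each of the 34 members on every array as log2(intensity + 16), coloured by role, with a black line at the median of the 34. The medians of the bam, aly and sa arrays all lie above those of the yw arrays, and the single point near the bottom of each mutant array is RpS28-like.

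In bam testes 31 members were called higher than in yw and 1 lower, where a call needs an adjusted p under 0.05 and also a difference of 2-fold or more. Over all genes 34.3% were called higher and 18.6% lower. The median member difference was 1.51, against 0.18 for all genes. In aly testes 26 members rose and 1 fell (28.2% and 15.1% of all genes), with a median of 1.30 against 0.15. In sa testes 29 rose and 1 fell (23.9% and 12.9% of all genes), with a median of 1.31 against 0.09. The 3 comparisons share the yw arrays, and the member called lower was RpS28-like each time.

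Without the fold minimum 33 members passed upward and 1 downward in each comparison, where 45.7% of all genes passed upward and 25.5% downward in bam, 42.8% and 20.8% in aly, and 40.9% and 23.9% in sa. The arrays of the 2 genotypes were fully apart for all 34, with 33 higher in the mutant and 1 lower each time. Of all genes 46.9% were apart upward and 27.6% downward in bam, 46.4% and 23.0% in aly, and 41.7% and 28.9% in sa. The size of the sa difference depended on the scaling between arrays. With each array centred on its median, 13 members were called higher in sa and 1 lower, the member median was 0.91 and that of all genes -0.31. Among all genes called in sa against yw, 47.0% were then higher, against 64.9% as deposited. The distance between the member median and that of all genes, which centring cannot change, was 1.32 in bam, 1.15 in aly and 1.22 in sa. With quantile normalization it was 1.33, 1.27 and 1.42.

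**Figure D2:**
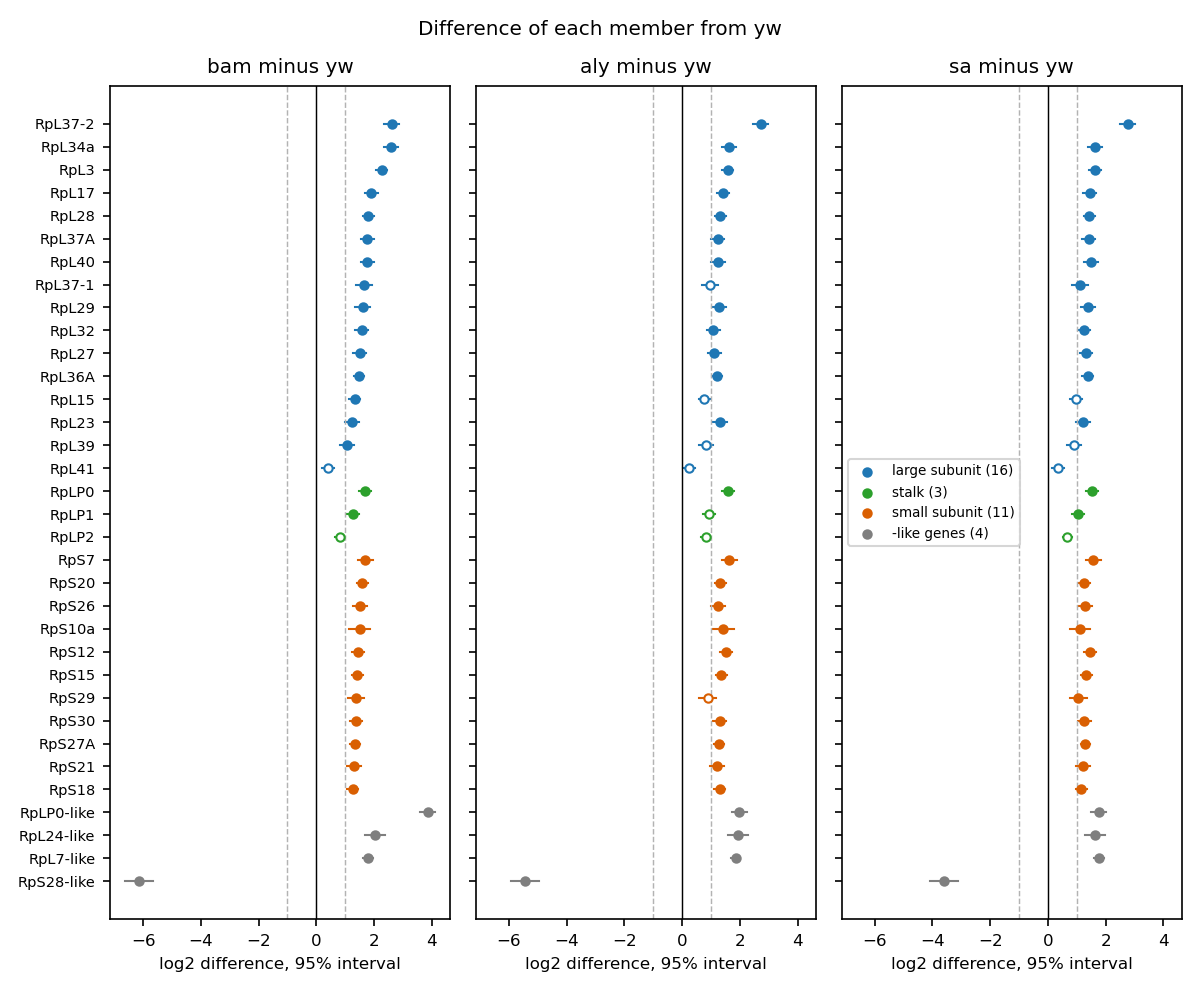
Difference of each member from yw in log2(intensity + 16), bam, aly and sa in separate panels, with 95% intervals and dashed lines at a 2-fold difference. Filled points have an adjusted p under 0.05 and a fold of at least 2, and RpS28-like alone lies below 0 in every panel.

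In the large subunit, 15 of 16 genes rose in bam with a median difference of 1.63, 12 of 16 in aly with 1.24, and 13 of 16 in sa with 1.39. RpL32 is the gene once called rp49, a standard reference transcript in fly work. It had 14979, 14807 and 15583 units in bam, 10318, 11946 and 10340 in aly, and 11961, 12443 and 12139 in sa, against 5484, 5463 and 4416 in yw. Every mutant array was above every yw array, and the bam arrays lay above those of aly and sa. The log2 difference from yw was 1.57 in bam (SE 0.0971, adjusted p = 3.04e-08), 1.09 in aly (adjusted p = 1.06e-06) and 1.25 in sa (adjusted p = 4.71e-07). Without yw replicate 3 the aly value was 0.98 and missed the 2-fold minimum, as the sa value did with median centring.

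RpL3, a protein whose inner loop reaches the peptidyl transferase centre, moved further. It had 14011, 13873 and 14050 units in bam, 8835, 8623 and 8604 in aly, and 8177, 9225 and 9807 in sa, against 3042, 3119 and 2592 in yw. The 4 genotypes fell into 3 levels, with bam highest, aly and sa overlapping, and yw lowest. Its differences from yw were 2.26 in bam, 1.57 in aly and 1.63 in sa, with adjusted p of 5.96e-10, 2.25e-08 and 3.47e-08. When its 3 probe sets were averaged, among them 2 dim ones, the aly and sa differences were 0.83 and 0.68 and no longer called.

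RpL34a, a duplicated gene of the large subunit, was the member of the main subunits with the widest gap between bam and the other mutants. It had 9568, 10061 and 8938 units in bam, 4665, 5298 and 4642 in aly, and 4372, 5035 and 5535 in sa, against 1708, 1654 and 1386 in yw. The bam arrays were all above those of aly and sa, which overlapped, and yw was lowest. It rose over yw by 2.58 in bam (adjusted p = 1.23e-09), 1.61 in aly (1.15e-07) and 1.64 in sa (1.71e-07).

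RpL40, which is made as a fusion with ubiquitin, rose by 1.77 in bam, 1.24 in aly and 1.49 in sa. RpL37A, a zinc-binding protein of another family than the RpL37 pair below, rose by 1.77, 1.23 and 1.41 in that order. RpL23, which lies on the face of the large subunit that meets the small one, rose by 1.24, 1.32 and 1.22, the last not called with median centring. RpL15 rose by 1.33 in bam, while its 0.76 in aly and 0.97 in sa had limma adjusted p of 9.46e-06 and 1.63e-06 but missed the 2-fold minimum. The sa value passed that minimum in 4 alternatives that keep it, among them quantile normalization (1.15). RpL39, named after its values were seen, was likewise called in bam alone, with 1.08 there, 0.84 in aly and 0.91 in sa.

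The stalk of the large subunit recruits the translation factors. Its base, RpLP0, had 16598, 17095 and 17627 units in bam, 15904, 16263 and 15248 in aly, and 14146, 16222 and 15294 in sa, against 5371, 5867 and 4618 in yw. It rose by 1.70, 1.58 and 1.53 in bam, aly and sa. RpLP1 and RpLP2, the paired proteins that it carries, moved less. RpLP1 rose by 1.27 in bam and by 1.05 in sa, a call lost without yw replicate 3 (0.94). In aly it stood 0.94 above yw without a call. It gained that call in 3 alternatives that keep the fold minimum, among them quantile normalization (1.14). RpLP2 had 14473, 14954 and 15551 units in bam, 14084, 15524 and 15382 in aly, and 13108, 13436 and 14300 in sa, against 8965, 8367 and 8235 in yw. Its differences of 0.81, 0.81 and 0.67 passed the p threshold and missed the fold minimum in all 3 mutants. The aly difference was called in 1 of the alternatives that keep the fold minimum.

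In the small subunit 11 of 11 genes rose in bam, 10 of 11 in aly and 11 of 11 in sa, with medians of 1.42, 1.31 and 1.27. RpS27A, the other ubiquitin fusion, had 16723, 17008 and 17606 units in bam, 16472, 16058 and 17308 in aly, and 16447, 16986 and 16852 in sa, against 7169, 7069 and 6196 in yw. The 9 mutant arrays ran together, and its differences of 1.33, 1.29 and 1.30 were nearly alike. RpS12 had 15293, 15804 and 15969 units in bam, 15355, 17377 and 16929 in aly, and 15259, 15669 and 16722 in sa, against 6481, 5724 and 5215 in yw. It rose by 1.44, 1.51 and 1.45.

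RpS15, which lies near the decoding site, rose by 1.42, 1.35 and 1.33. RpS21 rose by 1.32, 1.20 and 1.23, and RpS30, made as a fusion with a ubiquitin-like protein, by 1.38, 1.31 and 1.27. RpS10a, a duplicate of RpS10b, had 3852, 4288 and 4255 units in bam, 3597, 4819 and 3485 in aly, and 2820, 3081 and 3618 in sa, against 1791, 1214 and 1392 in yw. It rose by 1.50, 1.43 and 1.12, and the sa value was 0.99 and not called without yw replicate 2. With median centring the sa calls of RpS10a, RpS15, RpS21, RpS27A, RpS29, RpS30, RpL37-1 and RpLP1 were also lost. This list holds named genes only, and members not named lost theirs too. Of all members, 13 were then called higher in sa, against 29 as deposited.

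RpS29 was measured by 3 probe sets that disagreed, and it is named after those values were seen. The brightest, used above, averaged 17740 ± 236 units in bam, 12616 ± 1664 in aly and 14238 ± 1062 in sa, against 6865 ± 1114 in yw (SD, n = 3 each). It was higher by 1.38 in bam and 1.06 in sa, both called, and by 0.88 in aly, called only with quantile normalization (1.08) among the alternatives that keep the fold minimum. Another, nearly as bright, differed by 0.74 in bam, 0.35 in aly and 0.55 in sa, all under 2-fold. A dim one averaged 43.8 units in bam, 57.1 in aly and 127 in sa, against 528 in yw, with differences of -3.12, -2.83 and -1.87. With the 3 averaged, the bam and sa differences were -0.33 and -0.087. The sa call was also lost without yw replicate 3, with 0.93.

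The yw arrays differed among themselves in these genes more than the mutant arrays did. Among the 30 members without the -like genes, yw replicate 3 gave the lowest yw value for 26 genes, replicate 2 for 4 and replicate 1 for 0. Over all genes replicate 3 was lowest for 19.1%. The median SD of the 30 genes was 0.0384 log2 units in bam, 0.0833 in aly and 0.0669 in sa, against 0.188 in yw. The corresponding SDs over all genes were 0.112, 0.102 and 0.137, against 0.173. Many members also lay near the bright end of the scale: the brightest gene of an array had 21735 to 22961 units in bam, 23731 to 25070 in aly and 24800 to 25799 in sa, against 20399 to 21387 in yw. Whether the brightest probe sets still respond in proportion to RNA was not tested.

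The duplicate genes RpL37-1 and RpL37-2 encode the same large subunit protein family. RpL37-1, on the X chromosome and formerly RpL37a, had 12986, 13653 and 13112 units in bam, 8585, 8913 and 7316 in aly, and 8640, 9223 and 9027 in sa, against 4149, 5026 and 3466 in yw. RpL37-2, formerly RpL37b, had 9822, 10812 and 11204 units in bam, 10777, 12196 and 11459 in aly, and 11084, 11443 and 12898 in sa, against 2068, 1488 and 1674 in yw. RpL37-1 was thus highest in bam, while the RpL37-2 values of the 3 mutants overlapped, all far above yw. RpL37-1 rose by 1.67 in bam (95% interval 1.39 to 1.94) and 1.10 in sa, a call lost without yw replicate 3 (0.97). In aly it stood at 0.98 without a call. It gained that call in 4 alternatives that keep the fold minimum, quantile normalization (1.14) among them. RpL37-2 rose 6.09-fold in bam, 6.59-fold in aly and 6.77-fold in sa (log2 2.61, 2.72 and 2.76), and its interval in bam, 2.34 to 2.87, did not reach that of RpL37-1. Against the median of the members it was higher by 1.06, 1.54 and 1.47, which passed both thresholds.

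RpL41, the shortest ribosomal protein and a peptide that bridges the subunits, had the smallest differences from yw of all members. It had 19159, 17602 and 19480 units in bam, 16202, 17407 and 17330 in aly, and 20263, 17222 and 17354 in sa, against 15567, 12999 and 14227 in yw. Every mutant array lay above every yw array, by a small margin. Its differences from yw were 0.40, 0.25 and 0.36, with adjusted p of 0.00247, 0.0338 and 0.00583 and no call at the fold minimum. Relative to the median of the members it stood at -1.15 in bam, which passed both thresholds. However, it already averaged 14264.5 units in yw, and the brightest gene of any array had 25798.6. A rise like the 2.84-fold of the median member in bam had no room on this scale. Whether its RNA rose less than that of other members was therefore not tested.

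Among the -like genes, RpLP0-like, the fly counterpart of the yeast large subunit assembly factor Mrt4, had the largest rise of all members in bam. It had 3592, 3575 and 2996 units in bam, 880.4, 935 and 917 in aly, and 727, 813 and 796 in sa, against 255, 183 and 224 in yw. The 4 genotypes did not overlap. It was 14.4-fold higher in bam than in yw (log2 3.85, SE 0.117, adjusted p = 4.6e-11), and rose by 1.98 in aly and 1.76 in sa.

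RpL24-like, the counterpart of yeast Rlp24, which holds the place of RpL24 on the maturing subunit, had 5168, 5950 and 5288 units in bam, 5369, 6034 and 4117 in aly, and 3742, 4403 and 4385 in sa, against 1563, 1121 and 1329 in yw. It rose by 2.03, 1.93 and 1.64. RpL7-like, a relative of RpL7, had 3792, 4082 and 3885 units in bam, 4016, 4367 and 3836 in aly, and 3894, 3804 and 3902 in sa, against 1164, 1044 and 1144 in yw. It rose by 1.80, 1.85 and 1.78, with the 9 mutant arrays running together.

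RpS28-like, a relative of RpS28, went the other way. It had 33.3, 30.2 and 27.8 units in bam, 61.3, 59.0 and 55.7 in aly, and 349.9, 209 and 220.4 in sa, against 4522, 2455 and 3007 in yw. The 4 genotypes were fully apart, with bam lowest and yw highest, and the bam values lay below the array medians of 44.7 to 56.1 units over all probe sets. It fell in all 3 mutants, with differences in log2(intensity + 16) of -6.12 in bam (SE 0.219, adjusted p = 2.11e-10), -5.44 in aly and -3.59 in sa. No fold is given, since the table has no detection calls to show that the bam and aly values stand above background, and at this level the pseudocount sets the size.

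**Figure D3:**
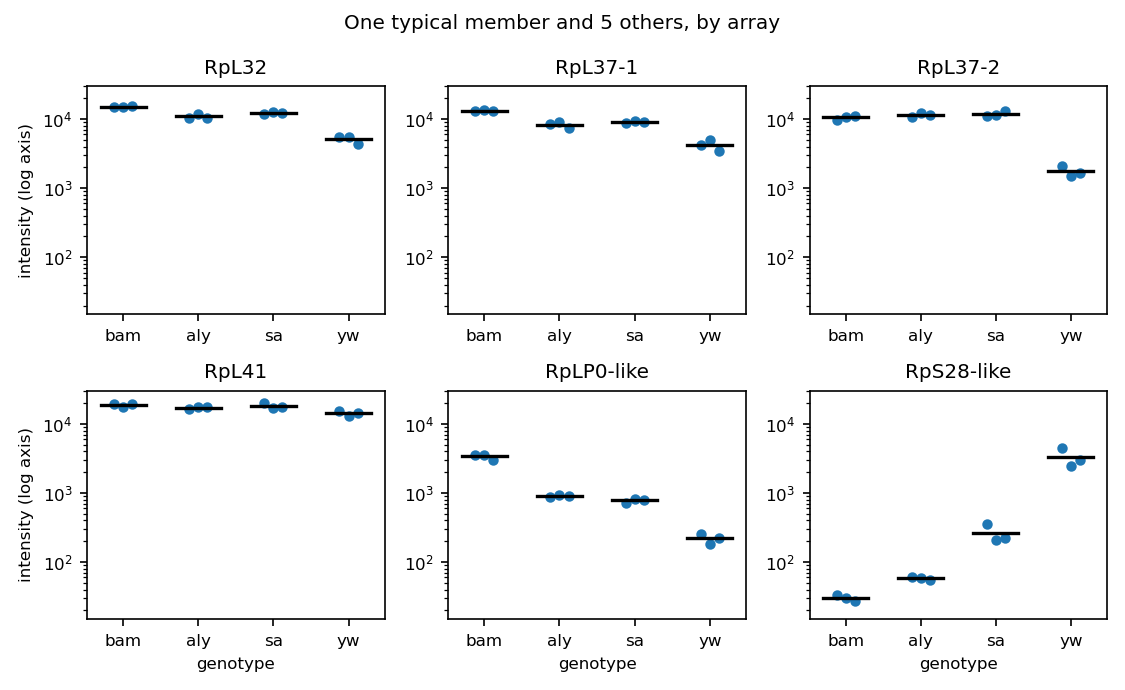
Intensity per array, on a log axis, of RpL32 and the members that stood apart, with lines at the means of bam, aly, sa and yw. RpL32, RpL37-1 and RpL37-2 are lowest in yw, RpL41 is nearly level, RpLP0-like peaks in bam, and RpS28-like is bright in yw alone.

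Between the mutants the differences of the 34 members were within 2-fold, RpLP0-like and RpS28-like aside. In sa against bam, 1 was called higher and 1 lower (20.5% and 20.7% of all genes), RpS28-like and RpLP0-like. The median difference was -0.19, against -0.09 for all genes. In aly against bam 0 rose and 1 fell (16.3% and 18.8% of all genes), again RpLP0-like, with a median of -0.25 against 0.04. Both comparisons share the bam arrays. RpLP0-like was 4.27-fold lower in sa than in bam (log2 -2.09, adjusted p = 2.02e-08) and 3.66-fold lower in aly than in bam (-1.87, adjusted p = 7.74e-08). RpS28-like was higher in sa than in bam by 2.54 on the log2(intensity + 16) scale (adjusted p = 9.69e-07), and 0.69 higher in aly than in bam, not called (adjusted p = 0.0185).

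Dropping the fold minimum gave 1 member higher and 13 lower in sa against bam, where 31.3% and 36.3% of all genes passed, and 1 higher and 16 lower in aly against bam, where 28.9% and 30.2% did. Arrays were apart for 1 member upward and 27 downward in sa against bam (33.3% and 42.7% of all genes), and for 1 and 20 in aly against bam (36.2% and 33.5%). Of the members lower in sa at this looser threshold, 9 of 16 were large subunit genes, 2 of 11 small subunit genes and 0 of 3 stalk genes. In aly they were 12 of 16, 2 of 11 and 1 of 3. The median differences were -0.30 for the large and -0.11 for the small subunit in sa, and -0.48 and -0.07 in aly, and the difference between subunits was not tested. The small subunit genes lay nearer the bright end of the scale. On the bam arrays their median was 13.99 to 14.01 log2 units, against 13.74 to 13.79 for the large subunit. Whether this made their differences smaller was not tested. On single arrays, the large subunit median minus that of the small subunit was -0.26, -0.20 and -0.25 in bam, -0.55, -0.52 and -0.49 in aly, -0.43, -0.40 and -0.47 in sa, and -0.60, -0.30 and -0.50 in yw. The bam values lie above those of aly, sa and yw, the nearest yw array being at -0.30 beside the lowest bam array at -0.26. The yw values span those of aly and sa. As probe sets differ in response, these are contrasts between arrays and not ratios of subunit transcripts.

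RpL34a came closest to a call among the large subunit genes, at -0.94 in sa against bam (adjusted p = 1.54e-05) and -0.97 in aly against bam (adjusted p = 1.41e-05). It passed the fold minimum in aly without aly replicate 2 (-1.03) or bam replicate 3 (-1.01), and in sa with median centring (-1.15) or without sa replicate 3 (-1.02). RpL3 was at -0.63 in sa against bam (adjusted p = 7.43e-05) and -0.69 in aly against bam (adjusted p = 4.26e-05), and with its probe sets averaged at -1.83 and -1.68. RpL32 was at -0.31 (adjusted p = 0.0142) and -0.48 (adjusted p = 0.00114). RpL37-2 was at 0.15 (95% interval -0.11 to 0.42) and 0.11 (-0.15 to 0.38), and RpL23 and RpS12 at -0.01 and 0.02 in sa against bam. The signs in aly against bam depended on the scaling, since with median centring the member median was 0.02 and that of all genes 0.31, and 57.0% of called genes were higher, against 46.4% as deposited.

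Between the spermatocyte-arrest mutants aly and sa the differences of the members were within 2-fold, RpS28-like aside. In aly against sa 0 members rose and 1 fell (7.9% and 11.9% of all genes), with a median of -0.03 against 0.09 for all genes. The member was RpS28-like, lower in aly than in sa (log2 difference -1.85, adjusted p = 3.23e-05). Without the fold minimum the counts were 0 and 1, where 30% and 22.7% of all genes passed. The arrays were apart upward for 2 members and downward for 8 (40.6% and 25.7% of all genes), and overlapped for 24. Among the 30 genes without the -like ones, differences ran between -0.25 for RpL40 and 0.31 for RpS10a, with 95% intervals between -0.48 and 0.67, so that differences above 1.6-fold lay outside every interval. With median centring the member median was 0.45 and that of all genes 0.58. The share of called genes that were higher in aly was 39.8% as deposited, 51.3% with quantile normalization and 69.8% with median centring.

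**Figure D4:**
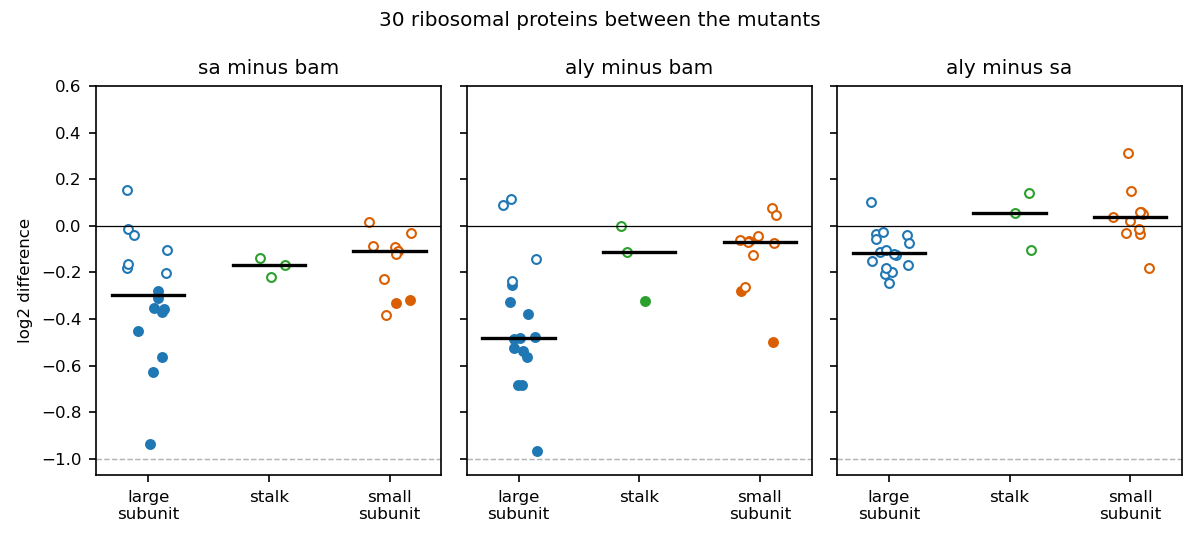
Differences of the 30 members without the -like genes in sa against bam, aly against bam and aly against sa, in log2(intensity + 16), by large subunit, stalk and small subunit, with a line at each median. Filled points have an adjusted p under 0.05 with no fold minimum, and in the comparisons with bam most of them are large subunit genes.

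Most genes of ribosome assembly were higher in the mutants than in yw, and most were lower in sa than in bam. Of 30 nucleolar and assembly genes listed, 26 were measured. In bam 24 rose over yw with a median of 3.15, in aly 24 rose with 1.83, and in sa 17 rose with 1.33, or 92.3%, 92.3% and 65.4% of the list beside 34.3%, 28.2% and 23.9% of all genes. Fewer were called in sa with median centring, 12 higher and 1 lower. Against bam, 20 fell in sa (median -1.78), and 13 fell and 1 rose in aly (median -1.10), the one that rose being RIOK2. Of all genes 20.7% fell in sa, and 18.8% fell and 16.3% rose in aly.

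Nopp140, a nucleolar scaffold, averaged 2961 ± 199 units in bam, 190.5 ± 31.4 in aly and 219.6 ± 36.9 in sa, against 77.3 ± 7.95 in yw (SD, n = 3 each). Its log2 difference was 5.0 in bam against yw, -3.67 in sa against bam and -3.86 in aly against bam. Nop60B, the pseudouridine synthase of the box H/ACA particles, averaged 5931 ± 651 units in bam, 1436 ± 132 in aly and 916 ± 326 in sa, against 368 ± 19.1 in yw (SD, n = 3 each). Fib, the methyltransferase fibrillarin, had differences from yw of 1.95, 1.39 and 0.94, the last not called. The values of ppan, a factor of large subunit assembly, were 3.50, 2.84 and 1.91, all called.

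Of 7 genes of RNA polymerase I and its factors, 3 rose in bam, 6 in aly and 3 in sa. With so few genes, the shares of 42.9%, 85.7% and 42.9% stand beside 34.3%, 28.2% and 23.9% of all genes, and that in bam is near the background. Polr1A, the largest subunit of the enzyme, rose by 3.39, 3.38 and 1.70, and Polr1B, the second largest, by 3.75, 1.76 and 1.09. Polr1A was at -0.01 in aly against bam, with no call, and at -1.68 in sa against bam, called.

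Of 19 initiation factors, 12 rose in bam with a median of 1.44, 8 rose and 1 fell in aly with 0.94, and 6 rose in sa with 0.87. The shares higher were 63.2%, 42.1% and 31.6%, beside 34.3%, 28.2% and 23.9% of all genes, so that the sa share was near that of all genes. In sa 2 were higher and 1 lower with median centring, or 10.5% higher beside 15% of all genes, and 9 were higher with quantile normalization. The eIF3 subunits eIF3d1 (2.92, 2.23 and 1.62) and eIF3g1 (2.91, 2.25 and 1.91) led, and eIF5 was the one lower in aly, at -1.82. Of 6 elongation and release factors 3 rose in each mutant, a list too short to set against those shares. The elongation factor eEF1gamma rose by 2.44, 1.36 and 1.50, while the release factor eRF3 rose by 2.45 in bam, with uncalled values of -0.70 in aly and 0.08 in sa, and was lower in both than in bam, at -2.37 in sa and -3.14 in aly.

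Mitochondrial ribosomal proteins, which serve the separate ribosome of that organelle, were also higher in the mutants. Of 69 genes 49 rose in bam, 58 in aly and 58 in sa (71.0%, 84.1% and 84.1%, beside 34.3%, 28.2% and 23.9% of all genes), with medians of 1.61, 2.04 and 1.48. In sa 39 rose with median centring. In aly against bam the counts depended on the scaling, with 10 higher and 1 lower as deposited (median 0.49), 4 and 4 with quantile normalization (0.24), and 20 and 1 with median centring (0.75). The shares higher were 14.5%, 5.8% and 29.0% in that order, beside 16.3%, 15.8% and 20.2% of all genes. As deposited, 18.8% of all genes were lower. The cytosolic members had medians of -0.25, -0.16 and 0.022 under the same scalings. In sa against bam 3 were higher and 4 lower as deposited (20.5% and 20.7% of all genes), with a median of 0.02, and 3 higher and 10 lower with either other scaling. The difference between the mitochondrial and the cytosolic set was not tested.

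**Figure D5:**
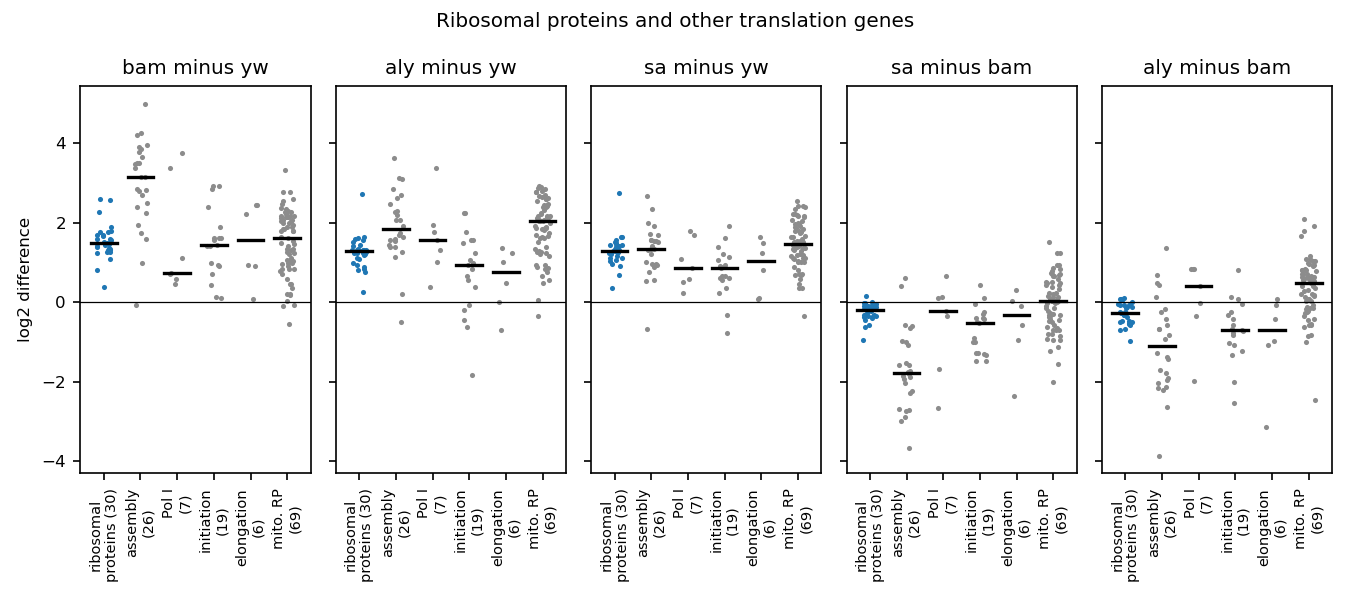
Differences in log2(intensity + 16) of the 30 ribosomal protein genes, 26 assembly genes, 7 genes of RNA polymerase I, 19 initiation factors, 6 elongation and release factors and 69 mitochondrial ribosomal proteins in 5 comparisons, 1 point per gene and a line at the median. The assembly genes spread furthest, with medians of 3.15 in bam against yw and -1.78 in sa against bam.

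Markers of other cells moved beside these results. Of the 7 muscle genes measured, 6 were higher in bam than in yw, 0 in aly and 0 in sa (34.3%, 28.2% and 23.9% of all genes). The one lower in aly and in sa was Act87E. Against bam, 7 of 7 were lower in both sa and aly (20.7% and 18.8% of all genes). Of 11 accessory gland genes, 0 were called in bam against yw, and 3 were lower in aly than in yw (15.1% of all genes). Lower than in bam were 2 in sa and 10 in aly, beside 20.7% and 18.8% of all genes, so that the sa count was near the background. Their sums were 17111 to 85472 units in bam, 4212 to 7070 in aly and 7839 to 17724 in sa, against 8925 to 60868 in yw. Sums of the 6 hub and cyst genes were 1118 to 1276 units in bam, 481 to 643 in aly and 610 to 678 in sa, against 375 to 659 in yw. The part of these cells in the differences of the members was not tested.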

How the data were processed

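The authors deposited 1 linear probe set intensity per array; the submitters' processing notes name MAS5, RMA and limma, and which of these gave the values, and their versions, are not given in the sources used here. Values of 12 arrays were used on the deposited scale (9.35 to 25798.63 units; 0 columns left unused), and log2(intensity + 16) was computed here. The number of arrays limits the precision. Of 18769 probe sets that are not controls, 13647 had 1 symbol, 402 several and 4720 none here. The brightest probe set stood for each of 11982 genes, and 13544 probe sets matched RefSeq's Release 6 table by Entrez identifier, with 0 symbols changed.

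A mean per genotype was fitted to all arrays in limma 3.58.1 (R 4.3.3) with eBayes, 6 comparisons and an F test, and p-values were Benjamini-Hochberg adjusted over all genes; the script was tested on simulated data. The members, gene lists and tests were chosen with earlier results of these data known. Named genes were 23 members (reference and duplicated genes, the 3 largest and 3 smallest differences of each comparison, and those over 1 log2 unit from the median), and in other lists the 3 largest called differences with Fib, Nop60B and ppan. RpS29, RpL39 and a few genes with counts of 1 were added after their values were seen. Other lists also covered growth regulators, fat body and hemocytes. Alternatives changed the scaling, probe set choice, dim-gene filter, pseudocount, replicate block, arrays fitted, eBayes settings, fold minimum and single arrays. A comparison of promoter letters was not run, and no sequences were used here.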

Additional observations from a re-analysis of the deposited data

How the results depend on the processing

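Of the 278 alternative values of the member counts and medians, 262 stayed within the replicate spread or within 1.5 times the count. The others came mainly from the scaling. With median centring the median difference was 1.32 in bam, 0.91 in sa (14 members called) against yw, -0.41 in sa and 0.022 in aly against bam, and 0.45 in aly against sa; with quantile normalization it was 1.61 in bam, 1.47 in aly and 1.46 in sa against yw. Without the fold minimum 14 members passed in sa and 17 in aly against bam, in place of 2 and 1, and with the mean of probe sets 2 in aly against bam. Leaving out single arrays gave medians of 1.44 to 1.61 in bam, 1.21 to 1.33 in aly and 1.22 to 1.37 in sa against yw, the lowest each time without yw replicate 3 and the highest without yw replicate 1, and 1 to 2 members called in aly against bam. With the mean of probe sets RpS29 was at -0.33 in bam and -0.087 in sa against yw. Centring each array on the members turns every value into one relative to the other members, and signs of members then changed by construction. The values below are for RpS29 and the members named by rule, where called before or after this centring. In bam against yw they were RpL15 -0.22, RpL23 -0.31, RpL41 -1.15, RpLP1 -0.28, RpS10a -0.041 and RpS12 -0.11. Also in bam were RpS15 -0.13, RpS21 -0.22, RpS27A -0.21, RpS29 -0.16 and RpS30 -0.17. In aly the value was RpL32 -0.091. In sa they were RpL23 -0.064, RpL32 -0.032, RpL37-1 -0.18, RpLP1 -0.24, RpS10a -0.17, RpS21 -0.058, RpS29 -0.23 and RpS30 -0.017. Signs changed in other cases too, such as RpL39 at -0.47 in bam and the uncalled RpL41 at -0.92 in aly. With the replicate block 32, 27 and 30 members were called in bam, aly and sa against yw, as without it. It changed no call of RpS29 or the 23 members named by rule. Same-numbered arrays correlated above 0.1 in 4 of 18 pairs (-0.415 to 0.481), and bam replicate 1 with yw replicate 2 at 0.662. As deviations from a genotype mean balance by construction, these correlations cannot decide whether the numbers pair the samples. Pseudocounts of 1 and 64, the brighter 5991 genes, a fit of the arrays compared and trended robust eBayes likewise changed no call of these named members. For the remaining members only the total counts were compared. The cause of the changes with scaling was not tested. The comparison of promoter letters was not run.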

Other observations

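Regulators of growth and factors known to act at ribosomal protein promoters differed between genotypes in several patterns. Of 14 such genes 10 were measured, of which 6 rose in bam, 5 in aly and 5 in sa against yw, beside 34.3%, 28.2% and 23.9% of all genes. Dref, a transcription factor of proliferation and growth genes, averaged 1577 ± 59.1 units in bam, 1225 ± 137 in aly and 549.7 ± 115 in sa, against 79.6 ± 23.4 in yw (SD, n = 3 each), and was called higher in all 3 mutants (4.09, 3.72 and 2.58). S6k, the kinase of ribosomal protein S6, averaged 532 ± 68.3 units in bam, 38.6 ± 14.5 in aly and 50.9 ± 23.4 in sa, against 32.1 ± 7.2 in yw, and rose over yw by 3.52 in bam, with no call in aly or sa.

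M1BP and Trf2, which are known to act at promoters of ribosomal protein genes in flies, were higher in aly than in bam and yw. M1BP averaged 1115 ± 44.4 units in bam, 3223 ± 71.3 in aly and 1586 ± 285 in sa, against 399.9 ± 103 in yw, and rose by 1.48, 2.99 and 1.96. Trf2 averaged 261 ± 18.3 units in bam, 1475 ± 204 in aly and 1026 ± 518 in sa, against 399 ± 103 in yw, with differences of -0.55 in bam, not called, 1.87 in aly and 1.22 in sa. They were higher in aly than in bam by 1.52 and 2.42. In aly against sa M1BP was higher by 1.03, while Trf2 was at 0.65 with no call (limma adjusted p = 0.123). Fat body markers summed to 1125 to 2500 units in bam, 299 to 499.5 in aly and 278 to 589.9 in sa, against 541 to 1287 in yw, and hemocyte markers to 605 to 715 in bam, 377 to 493 in aly and 446 to 482 in sa, against 263 to 335 in yw.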
